A study of Mus musculus with 9 samples.

Results

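Gene expression in podocytes 14 days after ADR was set against that 9 days after ADR, over every gene that reached 1 FPKM in 3 or more of the 6 libraries of these days. FPKM is a level scaled by transcript length and by the number of mapped fragments. That rule kept 9376 of the 23309 gene symbols in the table, measured in 6 of the study's 9 libraries. The study's title names WT1 and podocyte injury and repair, and the comparison asks how podocyte RNA differed between the earlier and the later time after treatment. There were 3 libraries from mice given ADR and labelled day 9 and 3 from mice given ADR and labelled day 14. A further 3 came from mice given PBS. The PBS values are given here for reference, and they also enter the test's estimate of spread. ADR is the abbreviation in the labels, which do not spell it out. All mice carried the mTmG reporter with a Cre driven by a podocyte promoter, had a wildtype genotype and were 7 to 8 weeks old. Recombined cells carry green fluorescent protein (GFP). RNA came from GFP-positive cells, with ribosomal RNA removed before library preparation. Whether a library stands for 1 animal or a pool, and whether libraries share animals, is not in the labels, so the p-values rest on the spread among libraries alone, which may be technical.

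Podocytes are the epithelial cells that cover the outer side of the glomerular capillaries. Their foot processes interlock and are joined by the slit diaphragm, a junction built around nephrin, and an actin cytoskeleton holds them to a basement membrane of laminin and collagen IV. They also secrete VEGF, on which the neighbouring endothelium depends. Mature podocytes rarely divide, and in injury they can lose the foot processes and the junction between them.

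The defining markers of the label were present in all 6 libraries. Podxl, encoding podocalyxin, the charged coat protein of the cell's free surface, was at 221, 119 and 151 FPKM on day 9 and at 96.3, 71.5 and 53.3 FPKM on day 14. Wt1, the transcription factor named in the title, was at 87.5, 81.3 and 26.7 FPKM on day 9 and at 12.3, 39.0 and 18.6 FPKM on day 14. Both were far above the filter in each library.

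Markers of other kidney cells stood apart in 2 libraries, day 9 replicate 3 and day 14 replicate 1. Summed over 24 endothelial markers, the level was 647, 705 and 4580.1 FPKM in day 9 replicates 1 to 3 and 1389.9, 436 and 117 FPKM in day 14 replicates 1 to 3. In day 9 replicate 3, 22 of these 24 markers were over 4 times the highest PBS library and at 1 FPKM or more, and in day 14 replicate 1 this held for 23. For 22 proximal tubule markers, the sums were 131, 178 and 270.1 FPKM on day 9 and 5914, 50.6 and 18.5 FPKM on day 14, with 20 of the 22 raised in that way in day 14 replicate 1. Sums over 23 distal nephron and duct markers (distal tubule, loop of Henle and collecting duct) were 101, 151 and 901 FPKM on day 9 and 13557, 24.3 and 25.4 FPKM on day 14. Over 30 leukocyte markers they were 22.3, 43.6 and 1534 and 2561, 14.3 and 41.7 FPKM. Over 19 mesangial and smooth muscle markers they were 89.9, 101 and 792 and 186, 69.7 and 76.3 FPKM, and over 12 red cell markers 1525, 28.5 and 691 and 250.2, 45.7 and 50.4 FPKM. The libraries with the highest sums thus lay on both days. In day 14 replicate 2, 11 of the 24 endothelial, 7 of the 22 proximal tubule and 21 of the 30 leukocyte markers were listed at 0. Of the markers that reached the test, 0 of 9 endothelial, 10 proximal tubule, 13 distal, 6 leukocyte and 5 red cell genes passed by limma, with 1 endothelial, 1 distal and 1 leukocyte gene lower at an unadjusted p under 0.05. Of 9 mesangial and smooth muscle markers 2 fell, which are named below. Y-linked transcripts summed to 53.6 FPKM in day 9 replicate 1 and 70.5 FPKM in day 14 replicate 2, and to at most 1.06 FPKM in the other 4. Relative depth, estimated from the spacing of low values with PBS replicate 2 set to 1, was 0.785 to 0.889 on day 9 and 0.239 to 0.568 on day 14. The counts for the gene lists below are therefore also given without the 2 libraries rich in markers of other cells. In that fit 1 endothelial, 1 proximal tubule, 3 distal, 1 leukocyte and 2 mesangial markers were lower on day 14 and 0 higher. Median log2 changes, relative to all genes tested, were −0.26, −0.75, −1.39, −0.92 and −0.30 in that order, and −2.81 for red cells. The reduced set was thus still lower in these markers on day 14.

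**Figure D1:**
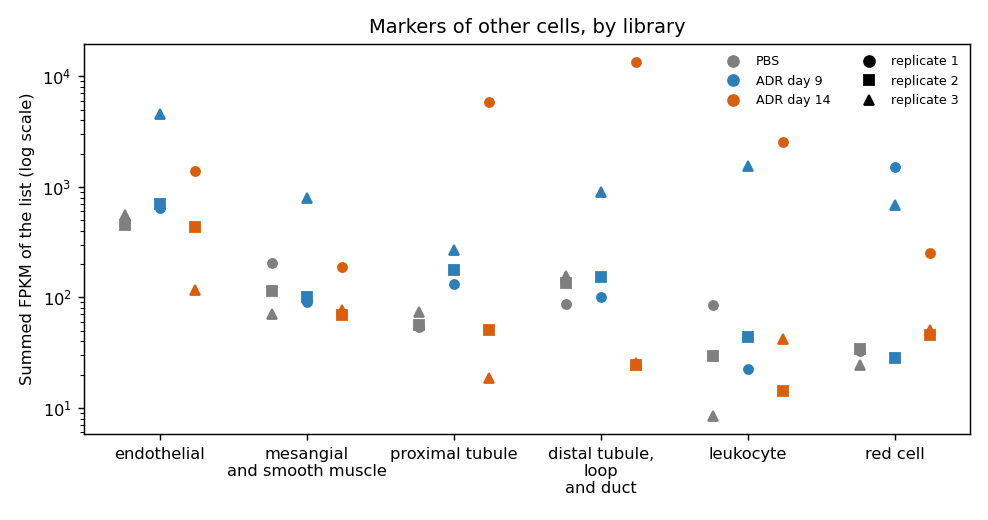
Summed FPKM (vertical axis, log scale) of 6 lists of markers of other cells, with 1 point per library, colours for the groups and shapes for the replicate numbers. Day 14 replicate 1 reached 5914 FPKM for proximal tubule markers and 13557 FPKM for distal nephron and duct markers, and day 9 replicate 3 reached 4580 FPKM for endothelial markers.

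Between day 9 and day 14, 1606 genes passed the test, which is 17.1% of the 9376 tested. Of these, 587 rose (6.26%) and 1019 fell (10.9%). The test was limma on log2(FPKM + 1) with Benjamini-Hochberg adjustment and a threshold of 0.05. It was fitted to all 9 libraries, so the PBS libraries enter the spread behind each p-value. With only the 6 ADR libraries in the fit, 431 genes passed. Each log2 change below is given relative to the median of all genes tested, which was −0.21 as deposited. The test and its p-values are for the difference as deposited, which is the printed change plus that median. Among the risen genes, 565 exceeded 2-fold, 119 exceeded 4-fold and 7 exceeded 8-fold on that scale, with a median log2 change of 1.57. Among the fallen genes, 631 exceeded 2-fold, 66 exceeded 4-fold and 4 exceeded 8-fold, with a median of −1.11. Over all genes tested, the 3 day 14 libraries lay above the 3 day 9 libraries in 13.6% and below them in 24.6%. The groups were separate in 586 of the 587 risen and 1018 of the 1019 fallen genes. Separation of a named gene therefore adds little to its call.

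The split between directions moved with the scaling, from 36.6% risen as deposited to 56.1% with median-of-ratios scaling and 56.5% with quantile normalization, and down to 18.2% with a common column total. The counts also moved with single libraries. Without day 9 replicate 3 the test passed 427 genes, without day 9 replicate 1 it passed 535, without day 9 replicate 2 it passed 672 and without PBS replicate 2 it passed 799. Without both marker-rich libraries 1320 genes passed (14.1% of those tested), 465 higher and 855 lower, and 983 of the 1606 (61.2%) were among them. The list counts given below for that fit stand beside these. Each gene named below as risen or fallen also held in each of 9 fits with a different library dropped, unless the number of those fits in which it passed is given. Where 0 members of a list below passed in a direction, at most 3 did so in the same limma fit at an unadjusted p under 0.05. In all, 125 of the risen and 220 of the fallen genes passed in all 9.

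**Figure D2:**
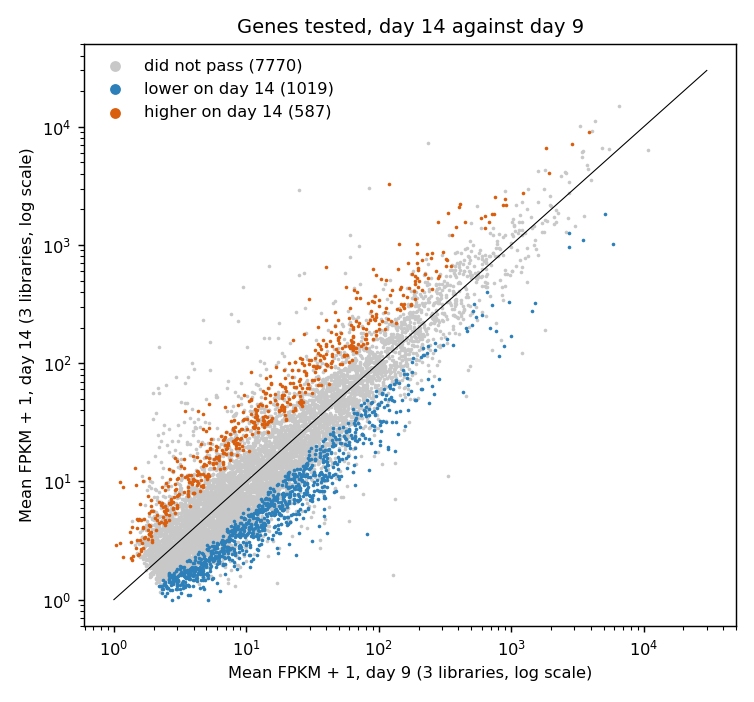
Mean FPKM + 1 of the 3 day 9 libraries (horizontal axis, log scale) against that of the 3 day 14 libraries (vertical axis, log scale), with 1 point per gene tested and a line of equal level. The 587 risen genes lie above the line and the 1019 fallen genes below it, and 7770 genes did not pass.

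Transcript length went with the direction of change. The median length of the longest annotated transcript was 1705.5 bases for risen genes, 4236 bases for fallen genes and 3114 bases for genes that did not pass. Of 525 genes under 1 kb, 23.2% rose and 0.952% fell, while of 2087 genes of 4 to 6 kb, 1.96% rose and 20.5% fell. Across 9324 genes with a length, Spearman's correlation between length and log2 change was −0.38, where genes are not independent replicates and share the same 6 libraries. With a trend on length and GC content removed from each library, 477 of 9324 genes passed, of which 303 were higher and 174 lower. The list counts given below for that fit stand beside these. That fit kept 24.2% of the calls. The day 14 libraries, as given above, also had the lower depth. The part of length and depth in single gene groups was not tested, and the podocyte, respiratory, ribosome and proteasome lists below carry their median length and their median change in that fit. Of the 61 genes named below that passed in all 9 fits with a library dropped, 20 did not pass once the trend was removed, with adjusted p from 0.0507 to 0.148 by limma. They were Plce1, Ptpro, Coro2b, Rhpn1, Itga3, Tyro3, Ndufa7, Ndufs6, Sdhb, Mrpl46, Rpl23, Psmc1, Cryab, Syvn1, Ulk1, Atp6v1g1, Park7, Ddx58, Timp3 and Axl, each with the same direction in that fit.

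**Figure D3:**
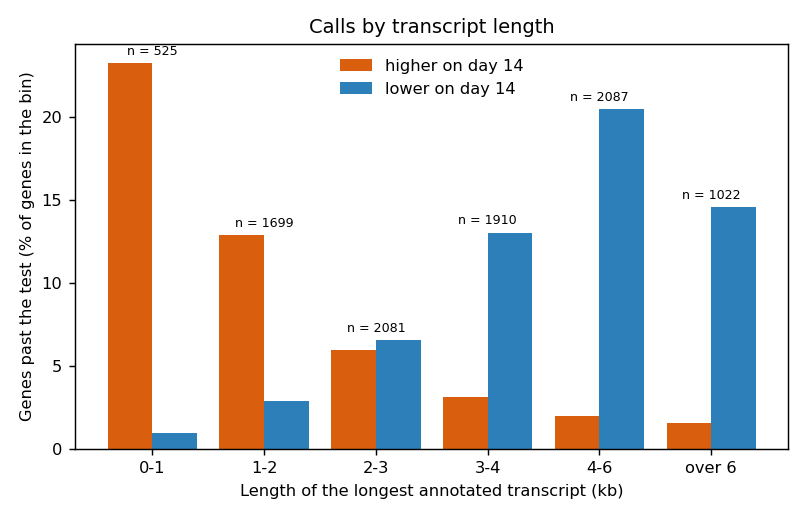
Share of genes past the test (vertical axis, percent of the genes in a bin) by length of the longest annotated transcript (horizontal axis, kb), with risen and fallen genes as separate bars and the number of genes above each pair. Risen genes made up 23.2% of genes under 1 kb and 1.57% of those over 6 kb.

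Slit diaphragm genes were lower on day 14 or did not pass. Of 19 tested, 5 fell and 0 rose, against 10.9% fallen over all genes, with a list median of −0.79 on a scale where the median of all genes is 0. At an unadjusted p under 0.05, 12 were lower and 0 higher. Myo1e, a class I myosin of the foot process, was at 94.9, 107 and 146 FPKM with PBS, 189, 108 and 103 FPKM on day 9 and 29.5, 33.8 and 28.7 FPKM on day 14. No day 14 library overlapped the day 9 or PBS range, and the fall from day 9 was 1.82 ± 0.28 (log2 change ± SE, adjusted p = 0.00943 by limma). Ptpro, a receptor tyrosine phosphatase of the podocyte surface, fell by 1.59 and Plce1, phospholipase C epsilon, fell by 1.46. Crb2, a polarity protein, fell by 1.13 but passed in only 2 of 9 fits. In bulk RNA, fewer podocytes in a sample and less RNA of a gene in each podocyte cannot be told apart.

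Nphs1, which encodes nephrin, was at 99.2, 70.1 and 45.1 FPKM on day 9 and at 30.2, 44.7 and 33.7 FPKM on day 14. The groups did not overlap, but the log2 change of −0.70 did not pass (adjusted p = 0.0924, limma). For Wt1 the change was −1.21 ± 0.51 with an adjusted p of 0.0867 by limma, and the groups overlapped, with day 9 replicate 3 at 26.7 FPKM below day 14 replicate 2 at 39.0 FPKM. Without the 2 marker-rich libraries the Wt1 change was −1.43 with an adjusted p of 0.0314 by limma. Over that reduced set, 7 slit diaphragm genes fell, a share of 36.8% beside 14.1% of all genes called. Their transcripts are long, with a median of 5610 bases, and the list median was −0.42 with the length trend removed. There 2 of 19 were lower, beside 174 of all 9324 genes in that fit.

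Foot process actin and motor genes followed with 10 of 29 fallen, 0 risen and a median of −0.73. Tenc1, tensin 2, which links actin to integrins, was at 152, 143 and 102 FPKM on day 9 and at 8.82, 24.3 and 18.0 FPKM on day 14. All day 14 values lay far below the lowest day 9 value. Synpo, encoding the actin-bundling synaptopodin, went from 135, 101 and 113 to 25.0, 20.1 and 8.52 FPKM, also without overlap. The log2 falls were 2.76 for Tenc1 and 2.53 for Synpo, each with an adjusted p of 0.00943 by limma. Iqgap1, a scaffold for Rac and Cdc42 signalling, fell by 2.26. Rhpn1, a scaffold that binds a small GTPase, fell by 2.17, and the coronin Coro2b by 2.02. With the marker-rich pair dropped, 8 of 29 fell, a share of 27.6% beside 14.1% of all genes called. The list's median length was 4352 bases and its median change −0.44 after the length trend was removed, with 3 lower and 1 higher.

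Podocyte surface genes and markers had 9 of 24 fallen, 0 risen and a median of −0.87. Sema3g, a secreted semaphorin, was at 70.4, 18.5 and 30.1 FPKM on day 9 and 5.51, 2.13 and 0.316 FPKM on day 14 and fell by 3.34. Its day 9 values spread widely but stayed above every day 14 value. Thsd7a, a membrane protein known as an antigen in membranous nephropathy, fell by 1.86, Tdrd5, a tudor domain protein, by 1.73 and the heparan sulfate endosulfatase Sulf1 by 1.64. Gas1, a surface receptor for hedgehog ligands, fell by 2.54 and passed in 3 of 9 fits. Podxl, whose values are given above, fell by 0.92 and passed in 1 of 9 fits. Again 9 fell without the marker-rich libraries, and 4 with the length trend removed, where the median was −0.88. The list's median length was 4879.5 bases.

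Among podocyte transcription factors, 4 of 19 fell and 0 rose, with a median of −0.43. Foxc2, a forkhead factor, was at 11.9, 4.78 and 2.49 FPKM with PBS, 29.0, 23.1 and 20.1 FPKM on day 9 and 2.31, 4.38 and 1.21 FPKM on day 14. Every day 9 library was above the PBS range, and the fall from day 9 was 2.65 ± 0.50 on the log2 scale (adjusted p = 0.0121, limma). Lmx1b, the LIM homeodomain factor of nail-patella syndrome, fell by 1.70 from low levels and passed in 8 of 9 fits. Zhx1, a zinc finger homeobox protein, fell by 1.03 and passed in 5. Without the marker-rich libraries 6 of 19 fell. The median length was 4790 bases, and with the length trend removed the median was −0.26 and 2 genes were lower.

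Of 12 basement membrane genes, 5 fell and 0 rose, with a median of −1.05. Lamb2, the beta chain of the mature glomerular laminin, was at 56.5, 33.8 and 48.5 FPKM on day 9 and 10.3, 7.36 and 4.09 FPKM on day 14. Npnt, encoding the matrix protein nephronectin, was at 1069.6, 852 and 714 and 166, 198 and 51.6 FPKM. Neither gene's groups overlapped, and the falls were 2.35 for Lamb2 and 2.63 for Npnt. Agrn, a heparan sulfate proteoglycan, fell by 1.13 (7 of 9 fits), and Col18a1, a collagen that carries heparan sulfate chains, fell by 1.56 (5 of 9). Lamc1, the laminin gamma 1 chain, fell by 1.34 and passed in 2 of 9 fits. The median length was 6575.5 bases, and with the length trend removed the median was −0.59 and 2 genes passed. After both marker-rich libraries were dropped, 4 fell and the median was −0.88.

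Receptors for this matrix and their adaptors had 6 of 21 fallen and 1 risen, with a median of −0.38. Dag1, dystroglycan, was at 158, 153 and 108 FPKM on day 9 and 29.2, 24.2 and 19.99 FPKM on day 14 and fell by 2.25. Pxn, the focal adhesion adaptor paxillin, was at 18.3, 19.96 and 22.7 FPKM on day 9 and 2.97, 3.89 and 3.78 FPKM on day 14 and fell by 2.02. Both genes had narrow groups that lay far apart. Itga3, the integrin alpha 3 chain that binds laminin, fell by 1.79, and Parva, the parvin that couples integrin-linked kinase to actin, fell by 1.69. Rsu1, which binds the partner of the same kinase complex, went the other way, from 33.8, 26.2 and 25.6 to 63.4, 60.3 and 58.7 FPKM, a rise of 1.29 (7 of 9 fits). Leaving both marker-rich libraries out, 5 fell and 1 rose. Their median length was 4327 bases, and the length-corrected median was −0.17, with 3 lower and 1 higher.

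Of 14 secreted angiocrine and growth factors, 5 fell and 1 rose, with a median of −0.49. Vegfa was at 632, 405 and 285 FPKM with PBS, 1035, 898 and 509 FPKM on day 9 and 102, 173 and 67.6 FPKM on day 14. All day 14 libraries lay below all PBS and day 9 libraries, and the fall from day 9 was 2.65 ± 0.44 (adjusted p = 0.00961, limma). Angptl2, a secreted angiopoietin-like protein, fell by 2.45, from 994, 1083 and 893 to 176, 241 and 87.7 FPKM. Plat, tissue plasminogen activator, fell by 1.36 and passed in 4 of 9 fits. Sema3g, given above, is also on this list. When the marker-rich libraries were left out, 4 fell and 0 rose. The median length was 3505 bases, and the length-corrected median was −0.28, with 3 lower.

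The following genes were named for the size of their fall or for a small p. Sirpa, the receptor for CD47, was at 89.9, 52.4 and 54.4 FPKM on day 9 and 9.90, 9.75 and 5.32 FPKM on day 14 and fell by 2.62. Tyro3, a receptor kinase for Gas6 and protein S, was at 61.3, 31.6 and 20.7 and 5.61, 5.63 and 0.954 FPKM and fell by 2.79. In both, the 3 day 14 libraries were below every PBS library as well. Card10, a scaffold of NF-kB signalling, fell by 2.91, Tbc1d9b, a GTPase-activating protein for Rab proteins, by 2.64, and Mustn1, a small nuclear protein of muscle and skeletal tissue, by 3.14. Mustn1 and Pdgfrb, the receptor of platelet-derived growth factor B, were the fallen genes among 9 tested mesangial and smooth muscle markers. Pdgfrb was at 12.6, 12.8 and 34.6 FPKM on day 9 and 2.49, 2.48 and 0.893 FPKM on day 14, highest in the marker-rich day 9 replicate 3, and fell by 2.52 (8 of 9 fits). Speg, a kinase of striated muscle, fell by 3.14 (6 of 9) and the ephrin receptor Ephb1 by 2.57 (7 of 9). Thbd, thrombomodulin, fell by 3.81 (6 of 9), with widely spread day 9 values of 79.5, 9.65 and 152 FPKM. Sgsh, a lysosomal sulfatase for heparan sulfate, fell by 2.09, and Paqr7, a membrane progestin receptor, fell by 2.01.

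**Figure D4:**
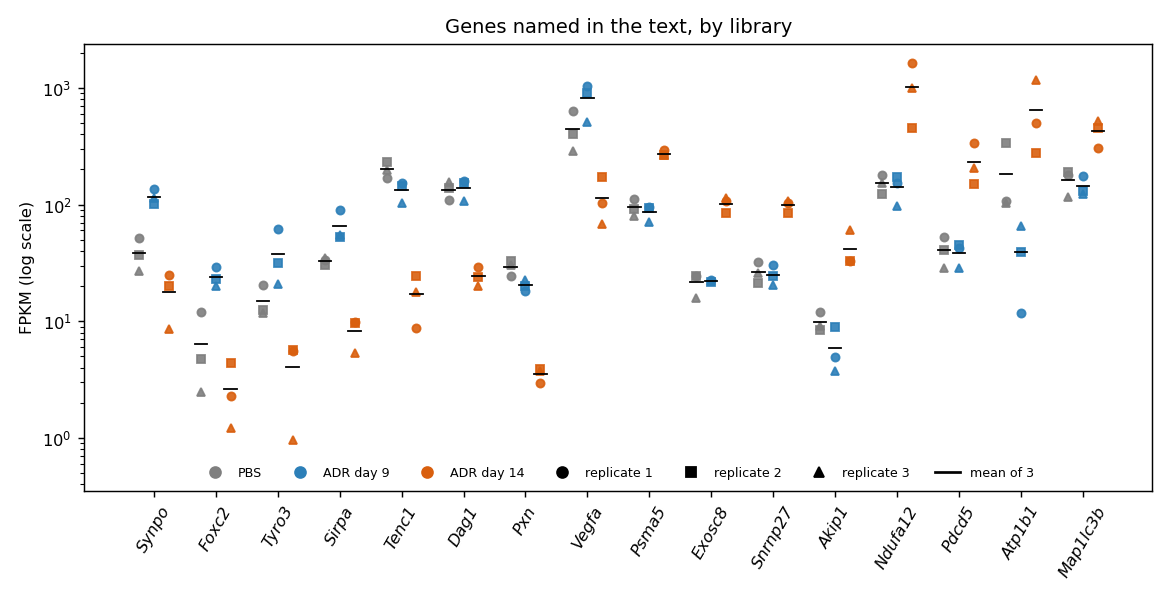
FPKM (vertical axis, log scale) of 16 genes in each library, with colours for PBS, day 9 and day 14, shapes for the replicate number and a bar at the mean of 3. The 3 day 14 points of the first 8 genes lie below all their day 9 points, and those of the last 8 lie above them.

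Respiratory chain genes rose or did not pass, apart from Sdha. Of 37 genes of complex I, which feeds electrons from NADH into the chain, 18 rose and 0 fell, against 6.26% risen over all genes, with a median of 1.62. Ndufa12 was at 154, 173 and 97.8 FPKM on day 9 and 1635, 452 and 989 FPKM on day 14. Ndufv3 was at 47.8, 58.2 and 31.9 and 415, 162 and 231 FPKM, and Ndufb9 at 60.3, 84.1 and 48.5 and 704, 185 and 348 FPKM. In all 3 genes the groups did not overlap and day 14 replicate 1, the library rich in tubule markers, was the highest. The rises were 2.92, 2.67 and 2.70 on the log2 scale in that order. Ndufa7 rose by 2.09 and Ndufs6 by 1.95. With the marker-rich pair dropped, 15 of the 37 rose, the list median was 0.94, and the rises were 2.21 for Ndufa12, 2.04 for Ndufv3 and 2.002 for Ndufb9.

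Complexes II to V, which carry electrons to oxygen and make ATP, had 16 of 39 risen and 1 fallen, with a median of 1.37. Cox4i1, a subunit of cytochrome c oxidase, was at 288, 308 and 247 FPKM on day 9 and 2771, 792 and 1135 FPKM on day 14 and rose by 2.49 (8 of 9 fits). Atp5k, a subunit of ATP synthase, was at 2038, 1969 and 1467 and 9315, 4867 and 5785 FPKM and rose by 2.04 (8 of 9). Cox6a1 rose by 1.94 (7 of 9). Day 14 replicate 1, the tubule-rich library, was the highest for Cox4i1 and Atp5k. Once the marker-rich libraries were left out, 11 genes rose and 2 fell, and the list median was 0.84. The 2 catalytic subunits of succinate dehydrogenase moved apart. Sdhb, its iron-sulfur subunit, went from 631, 652 and 478 to 1947, 1269.7 and 1863 FPKM, a rise of 1.73 ± 0.27. Sdha, its flavoprotein, went from 78.0, 96.7 and 102 to 33.2, 29.5 and 45.6 FPKM, a fall of 1.13 ± 0.23 (adjusted p = 0.0114, limma), and neither gene's groups overlapped. With the length trend removed the Sdhb change was 1.15 (adjusted p = 0.051, limma) and the Sdha change −1.20 (adjusted p = 0.0316, limma). Both respiratory lists hold short transcripts, with median lengths of 1046 bases for complex I and 1232 for the others. After that trend was removed, complex I had a median of 0.79 with 8 higher and 0 lower, and complexes II to V a median of 0.67 with 5 higher and 1 lower.

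Genes that build and supply mitochondria rose in part. Of 69 mitochondrial ribosomal protein genes, 20 rose and 1 fell, with a median of 0.88. Mrps14, of the small subunit, was at 9.10, 7.63 and 6.05 FPKM on day 9 and 39.5, 24.8 and 25.8 FPKM on day 14 and rose by 2.05. Mrpl46, of the large subunit, rose by 1.68, and Mrps26 by 1.77 (8 of 9 fits). After both marker-rich libraries were dropped, 8 rose and 1 fell, or 13.0% called against 14.1% of all genes in that fit. Of all 9376 genes, 465 rose there and 855 fell. With a median length of 2114 bases, the length-corrected median was 0.59, with 9 higher and 0 lower. Among 27 genes of mitochondrial import and protein quality control, 5 rose and 1 fell (22.2%, against 17.1% of all genes). Without the marker-rich libraries 3 rose, or 11.1% called against 14.1% of all genes. Timm8b, a chaperone of the intermembrane space, rose by 1.85 (8 of 9) and the matrix protease Clpp by 1.34 (7 of 9). Hspd1, the matrix chaperonin Hsp60, was at 30.1, 32.3 and 50.6 FPKM on day 9 and 17.6, 9.38 and 14.5 FPKM on day 14 and fell by 1.17 (3 of 9).

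Among genes for translation and protein turnover, those that passed rose. Of 71 cytosolic ribosomal protein genes, 12 rose and 0 fell, with a median of 0.80. That is 16.9%, beside 6.26% of all genes risen and 17.1% called in either direction. Many of these have near-identical pseudogenes, so their values are uncertain. Rps19, of the small subunit, was at 105, 205 and 186 FPKM on day 9 and 772, 581 and 752 FPKM on day 14 and rose by 2.34. Rpl23 rose by 1.77. Leaving both marker-rich libraries out, 6 rose and 0 fell, or 8.45%. In that fit 465 of all 9376 genes rose, and 14.1% were called in either direction. With the length trend removed the median was 0.27, with 3 higher and 1 lower, at a median length of 1059 bases. The proteasome, which degrades ubiquitinated proteins, had 7 of 34 subunit genes risen, 0 fallen and a median of 0.78. Psma5, of the alpha ring, was at 112, 92.3 and 79.3 FPKM with PBS, 94.7, 93.6 and 70.5 FPKM on day 9 and 290.3, 266 and 264 FPKM on day 14. The day 14 libraries were close to each other and lay above all others, a rise of 1.88 ± 0.22 (adjusted p = 0.00943, limma). Psmb3, of the beta ring, rose by 1.91 and the ATPase subunit Psmc1 by 1.68. Again 7 rose without the marker-rich libraries. With a median length of 1851 bases, the length-corrected median was 0.33, and 4 were higher.

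**Figure D5:**
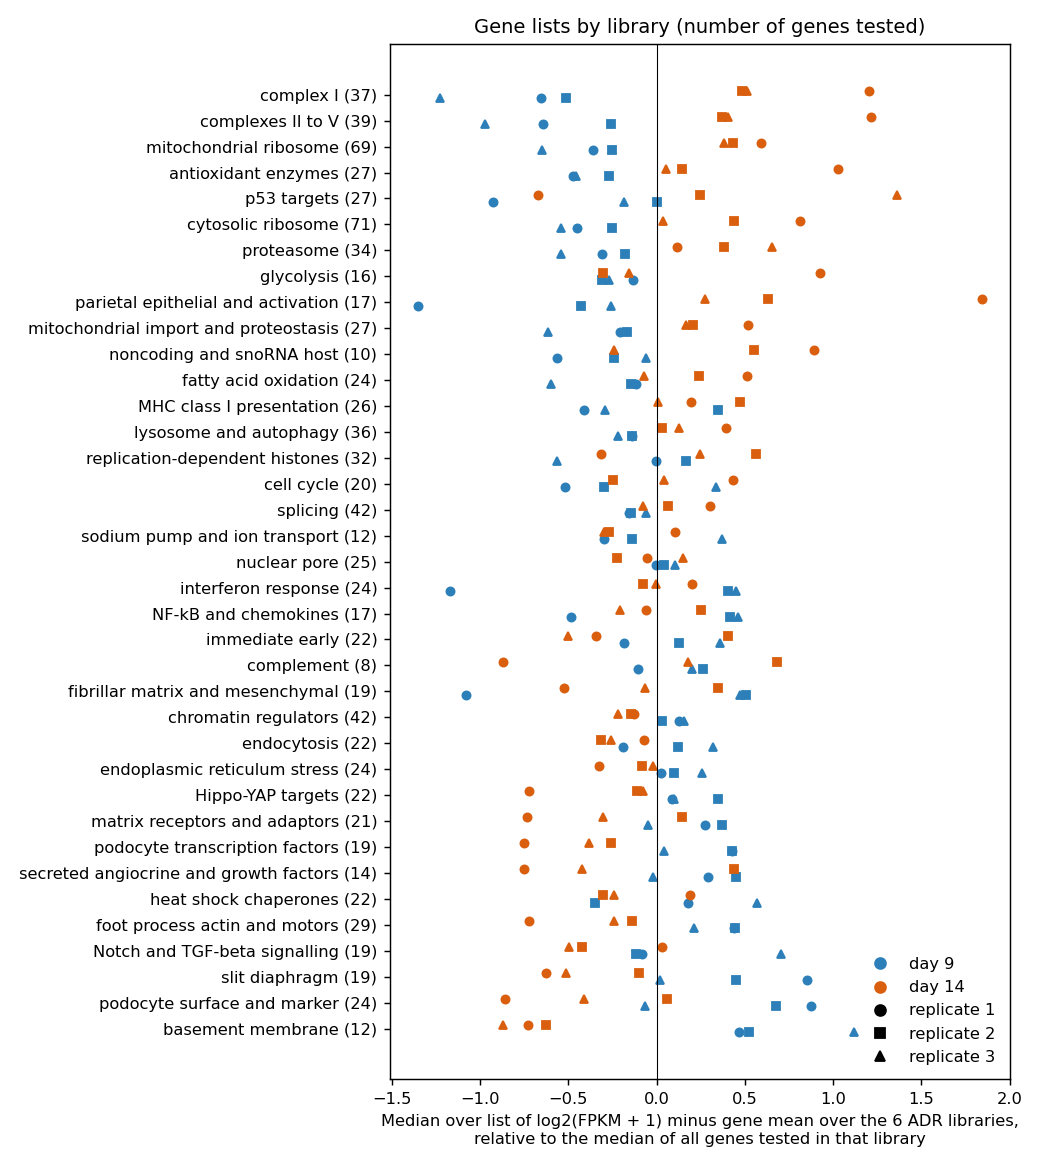
Median over each gene list (horizontal axis, log2(FPKM + 1) minus the gene's mean over the 6 libraries, relative to the median gene of the library) with 1 point per library, blue for day 9 and orange for day 14. The orange points of complex I and of complexes II to V lie to the right of all blue points, and those of the basement membrane to the left.

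With all libraries in the fit, lists of energy metabolism outside the respiratory chain were called at or below the share of all genes (17.1%). Of 16 glycolysis genes, 0 rose and 1 fell, although the median was 0.74. The fallen gene was Pkm, pyruvate kinase, at 695, 806 and 660.5 FPKM on day 9 and 211, 283 and 431 FPKM on day 14, a fall of 1.07 (6 of 9 fits). Of 24 genes of fatty acid oxidation, 2 rose and 2 fell (16.7%). Acot13, an acyl-CoA thioesterase, rose by 2.62 (6 of 9), with 325, 62.6 and 78.1 FPKM on day 14 and its highest value in the tubule-rich replicate 1. Etfb, of the electron transfer flavoprotein, rose by 2.22 (5 of 9), while Hadha, of the trifunctional protein, fell by 1.24 (2 of 9). The proximal tubule itself relies on fatty acid oxidation, and the part of tubule cells in these changes was not tested. When the marker-rich libraries were left out, 0 glycolysis genes rose and 3 fell, a share of 18.8%. Of the fatty acid oxidation genes, 2 rose and 4 fell in that fit, a share of 25%. Both shares were above the 14.1% of all genes. Without the marker-rich libraries Acot13 changed by 1.71 and Etfb by 1.34.

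The largest rises lay outside these lists for the most part. Atp1b1, the beta 1 subunit of the sodium pump, was at 106, 336 and 102 FPKM with PBS, 11.8, 39.0 and 65.7 FPKM on day 9 and 501, 274 and 1166 FPKM on day 14. The day 9 libraries were all below the PBS range, and day 14 replicate 3, which was low in tubule markers, was the highest. Its rise from day 9 was 4.28 ± 0.75 (adjusted p = 0.013, limma), and 4.83 without the marker-rich libraries. The other beta subunits fell, Atp1b2 by 1.39 (1 of 9 fits) and Atp1b3 by 0.65 (4 of 9). These 3 were the calls among 12 tested sodium pump and ion transport genes, or 25% beside 17.1% of all genes. Without the marker-rich libraries 1 gene of that list rose and 0 fell, so neither Atp1b2 nor Atp1b3 passed there. Exosc8, of the RNA exosome, was at 22.8, 21.6 and 22.1 FPKM on day 9 and 107, 84.2 and 113 FPKM on day 14 and rose by 2.35. Its day 9 libraries were nearly equal, and all day 14 libraries were well above the PBS values of 24.6, 24.5 and 15.8 FPKM.

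Akip1, an A-kinase interacting protein, was at 4.95, 8.86 and 3.74 FPKM on day 9 and 33.1, 32.6 and 60.2 FPKM on day 14 and rose by 2.87. Pdcd5, a protein linked to programmed cell death, went from 42.8, 44.6 and 28.7 to 339, 151 and 206 FPKM and rose by 2.71. Neither gene's groups overlapped, which was a condition for naming them. Prss23, a serine protease, rose by 3.54 (7 of 9 fits), Cdo1, cysteine dioxygenase, by 3.57 (5 of 9) and Crip2, a LIM protein, by 2.73 (7 of 9). H2afj, a histone H2A variant, rose by 2.91 (8 of 9) and the acidic nuclear phosphoprotein Anp32a by 2.75 (6 of 9). Bcl2l1, the anti-apoptotic Bcl-xL, was at 3.13, 3.18 and 4.82 FPKM on day 9 and 21.3, 9.38 and 77.6 FPKM on day 14 and rose by 2.71 (5 of 9), with day 14 replicate 3 far above the other libraries.

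Of 27 p53 target genes, 1 rose and 1 fell (7.41%, against 17.1% of all genes), with a list median of 0.80. Cdkn1a, the cell cycle inhibitor p21, was at 292, 456 and 570.4 FPKM with PBS, 3.27, 135 and 70.0 FPKM on day 9 and 76.8, 681 and 2159 FPKM on day 14. The groups overlapped, and its change of 4.03 ± 1.43 did not pass (adjusted p = 0.0947, limma). Day 14 replicate 1 was the lowest library of its group for Cdkn1a and for Bax, a pro-apoptotic member of the Bcl-2 family. Bax was at 0.533, 1.12 and 0.840 FPKM on day 9 and 1.53, 4.21 and 7.45 FPKM on day 14 and rose by 1.62 (1 of 9 fits). Ddb2, a sensor of DNA damage, fell by 0.89 (5 of 9). In the fit without the 2 marker-rich libraries, the list median was 1.36. There 6 genes rose and 1 fell, or 25.9% against 14.1% of all genes. Cdkn1a changed by 5.84 in that fit, with an adjusted p of 0.0438 by limma.

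Stress and clearance lists were called at 11.1% to 20.8% in either direction, around the 17.1% of all genes, so these shares do not set the lists apart. Of 22 heat shock chaperones and cofactors, 2 rose and 2 fell. Cryab, a small heat shock protein, was at 512, 583 and 254 FPKM on day 9 and 1395, 1482 and 1814 FPKM on day 14 and rose by 2.09. Dnajb6, an Hsp40 chaperone, rose by 1.45, while Bag6 fell by 1.94 (6 of 9 fits) and Hspa4l by 0.69 (4 of 9). Of 24 endoplasmic reticulum stress and folding genes, 1 rose and 4 fell. Syvn1, a ubiquitin ligase that clears misfolded proteins, fell by 1.61 and the lectin chaperone Canx by 1.07 (3 of 9), while Dnajb9, a cofactor of the chaperone BiP, rose by 1.53 (3 of 9). Among 36 lysosome and autophagy genes, 4 rose and 1 fell. Map1lc3b, which coats autophagosomes, was at 174, 132 and 124 FPKM on day 9 and 305, 451 and 518 FPKM on day 14 and rose by 1.76 (8 of 9). Atg3, the enzyme that joins such proteins to lipid, rose by 2.31, while Ulk1, a kinase that starts autophagy, fell by 1.45. The proton pump subunits Atp6v1g1 and Atp6v0e rose by 1.57 and 1.47, the latter in 7 of 9 fits. Of 27 antioxidant enzymes, 3 rose and 0 fell: Park7 by 1.71, and the peroxiredoxins Prdx6 by 1.70 (7 of 9) and Prdx1 by 1.67 (5 of 9). That is 11.1%, beside 6.26% of all genes risen. Once the marker-rich libraries were left out, 2 heat shock genes rose and 2 fell, 1 endoplasmic reticulum gene rose and 1 fell, 4 lysosome and autophagy genes rose and 2 fell, and 3 antioxidant genes rose and 1 fell. Those shares ran from 8.33% to 18.2%, beside 14.1% of all genes.

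Immune and early response lists were called at 0% to 12.5%, against 17.1% of all genes. Of 22 immediate early genes, 2 fell and 0 rose. Egr1, a zinc finger factor induced within minutes of a stimulus, was at 814, 1795 and 1913 FPKM on day 9 and 198, 497 and 264 FPKM on day 14 and fell by 2.03 (8 of 9 fits). The orphan receptor Nr4a1 fell by 1.57 (5 of 9). Of 26 genes of MHC class I presentation, 0 rose and 0 fell by limma, and 2 were higher and 1 lower at an unadjusted p under 0.05, with a median of 0.57. Leaving both marker-rich libraries out, 4 fell, a share of 15.4% beside 14.1% of all genes called in that fit. H2-K1, a heavy chain with close paralogs, was at 232, 847 and 298 FPKM on day 9 and 657, 1218 and 978 FPKM on day 14, with overlap (adjusted p = 0.105, limma). Of 24 interferon response genes, 1 rose (Ifi35, by 1.498, 7 of 9) and 2 fell, among them Ddx58, which encodes the RNA sensor RIG-I, by 1.03, and Trim25, the ligase that modifies it, by 1.13 (1 of 9). Among 17 NF-kB and chemokine genes, the call was Il34, a cytokine that acts on the CSF1 receptor, which fell by 2.13 (7 of 9). Of 8 tested complement genes, 0 passed by limma, also at an unadjusted p under 0.05. After both marker-rich libraries were dropped, 2 interferon response genes rose and 3 fell (20.8%, against 14.1% of all genes in that fit), 2 immediate early genes and 1 NF-kB and chemokine gene fell, and 0 complement genes passed.

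Injury and remodelling lists were called at 10.5% to 17.6% in either direction, beside 17.1% of all genes. The parietal calls were all rises, beside 6.26% of all genes risen. Those of the other lists were all falls, beside 10.9% of all genes fallen. With 2 or 3 calls per list, whether any of them stood apart was not tested. Of 17 parietal epithelial and activation genes, 3 rose and 0 fell. Lgals3, galectin 3, was at 208, 84.1 and 14.5 FPKM with PBS, 13.2, 36.4 and 36.3 FPKM on day 9 and 325, 125 and 596 FPKM on day 14 and rose by 3.64 ± 0.93 (3 of 9 fits). Its day 14 values were all above the day 9 values but spread over a wide range, and the PBS values overlapped both. Cd63, a tetraspanin of late endosomes, rose by 2.85 (7 of 9) and S100a10, the partner of annexin A2, by 1.42 (4 of 9). Of 19 fibrillar matrix and mesenchymal genes, Timp3, an inhibitor of metalloproteinases, fell by 1.35, and Col1a2 by 1.89 (7 of 9). Of 22 Hippo-YAP genes, 3 fell: Lats2, a kinase that inhibits YAP, by 1.65, the receptor kinase Axl by 1.65 and Amotl2, an angiomotin, by 1.59 (7 of 9). Lats2 was at 74.9, 76.3 and 73.6 FPKM on day 9 and 15.1, 23.99 and 21.8 FPKM on day 14, with narrow and separate groups. Of 19 Notch and TGF-beta genes, 3 fell: Rbpj, the DNA-binding partner of Notch, by 0.85 (5 of 9), Smad3 by 0.84 (4 of 9) and the receptor Acvr1 by 0.99 (8 of 9). When the marker-rich libraries were left out, the Hippo-YAP and the Notch and TGF-beta lists again had 3 falls each, the fibrillar list had 2, and the parietal list had 2 rises and 1 fall. Those shares ran from 10.5% to 17.6%, beside 14.1% of all genes.

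RNA processing, chromatin and cell cycle lists were called at 5% to 19% in either direction, around or below the 17.1% of all genes, so these shares do not set the lists apart. Of 42 splicing genes, 5 rose and 3 fell. Snrpa1, of the U2 particle, was at 23.2, 24.5 and 16.0 FPKM on day 9 and 70.8, 65.2 and 92.4 FPKM on day 14 and rose by 2.01. Lsm3 rose by 1.63 (7 of 9 fits) and Lsm6 by 1.36 (5 of 9), whereas the splicing factor Srsf6 fell by 1.59 (8 of 9) and Sf3b1 by 0.82 (3 of 9). Snrnp27, a component of the tri-snRNP outside the list, rose by 2.16, with 30.6, 24.2 and 20.5 FPKM on day 9 and 104, 85.4 and 108 FPKM on day 14. Of 25 nuclear pore genes, Nup133 fell by 1.28 and Nup98 by 1.07 (8 of 9), while Nup43 rose by 1.003 (1 of 9). Of 42 chromatin regulators, 2 rose and 5 fell. Eed, a core subunit of Polycomb complex PRC2, rose by 1.84 (6 of 9), while Smarcc2 of the BAF remodeller fell by 1.16 (5 of 9) and the histone demethylase Kdm4b by 1.23 (4 of 9). Among 32 replication-dependent histone genes, whose copies are nearly identical and whose values are uncertain, 2 rose and 2 fell. Hist1h4h rose by 1.98 (2 of 9) and Hist1h3e fell by 1.21 (7 of 9). Of 10 noncoding and snoRNA host genes, Snhg3 rose by 1.72 (2 of 9). Of 20 cell cycle genes, Ccnd3, a D-type cyclin, fell by 1.30 (1 of 9). Once the marker-rich libraries were left out, 3 splicing genes rose and 3 fell, 1 nuclear pore gene rose and 2 fell, 1 chromatin regulator rose and 2 fell, and 1 histone gene and 1 cell cycle gene rose, with 0 noncoding genes called by limma. Those shares were at most 14.3%, beside 14.1% of all genes.

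Of 22 endocytosis genes, 1 rose and 3 fell, a share of 18.2% beside 17.1% of all genes. Cltc, the clathrin heavy chain, was at 15.4, 11.9 and 22.2 FPKM on day 9 and 3.33, 2.19 and 4.44 FPKM on day 14 and fell by 1.80. Its groups were separate, with each day 14 library below every PBS library. Dab2, a clathrin adaptor, fell by 1.04 (7 of 9 fits) and Myo6, a motor that moves vesicles inward, by 1.06 (8 of 9). Rab7, a GTPase of late endosomes, rose by 1.27 (6 of 9), from 384, 301 and 274 to 686, 538 and 784 FPKM. In the fit without the 2 marker-rich libraries, 1 rose and 4 fell, or 22.7% against 14.1% of all genes.

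Promoters are shown for 4 genes that moved, as examples of windows that hold the letters searched for: WT1 for Dag1 and Card10, which fell, and NRF1 for the respiratory genes Cox6a1, which rose, and Sdha, which fell. Each is 250 bases before to 50 bases after the gene's start in RefSeq, build GRCm38.p6, written 5′ to 3′ along the gene, with motif matches on either strand in capitals. All 4 genes lie on the minus strand: Dag1 at chr9:108263909-108264208, Card10 at chr15:78802993-78803292, Cox6a1 at chr5:115348909-115349208 and Sdha at chr13:74350191-74350490.
Dag1: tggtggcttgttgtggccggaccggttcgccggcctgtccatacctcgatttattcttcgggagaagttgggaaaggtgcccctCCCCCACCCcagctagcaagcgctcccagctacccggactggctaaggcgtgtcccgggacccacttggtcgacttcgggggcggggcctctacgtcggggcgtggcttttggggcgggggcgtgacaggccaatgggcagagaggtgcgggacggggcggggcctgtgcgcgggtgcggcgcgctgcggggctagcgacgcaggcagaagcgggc
Card10: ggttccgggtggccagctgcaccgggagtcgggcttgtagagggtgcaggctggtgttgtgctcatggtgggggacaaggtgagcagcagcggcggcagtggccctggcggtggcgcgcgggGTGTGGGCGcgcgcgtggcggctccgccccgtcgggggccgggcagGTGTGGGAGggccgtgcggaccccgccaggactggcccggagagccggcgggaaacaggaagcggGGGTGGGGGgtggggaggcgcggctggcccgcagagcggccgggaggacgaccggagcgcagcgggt
Cox6a1: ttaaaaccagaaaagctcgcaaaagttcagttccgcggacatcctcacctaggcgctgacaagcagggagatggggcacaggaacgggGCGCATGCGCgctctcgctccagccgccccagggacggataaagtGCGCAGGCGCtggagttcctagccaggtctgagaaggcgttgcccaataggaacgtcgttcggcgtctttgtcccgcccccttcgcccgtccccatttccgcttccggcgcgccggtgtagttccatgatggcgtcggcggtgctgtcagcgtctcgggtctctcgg
Sdha: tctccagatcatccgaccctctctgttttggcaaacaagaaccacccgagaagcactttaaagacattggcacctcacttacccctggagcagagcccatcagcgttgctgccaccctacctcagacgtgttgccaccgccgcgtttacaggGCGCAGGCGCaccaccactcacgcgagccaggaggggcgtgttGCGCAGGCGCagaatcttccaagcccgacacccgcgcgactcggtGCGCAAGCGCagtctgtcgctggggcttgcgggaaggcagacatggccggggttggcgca

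The motifs searched on both strands were GNGTGGGNG for WT1, a zinc finger activator of podocyte genes, and GCGCA followed by any base and GCGC for NRF1, a regulator of nuclear genes for mitochondria. A promoter window was matched for 7520 of the genes tested (80.2%). The WT1 letters were in 14.08% of all 27025 windows of the table and in 17.11% of those of the genes tested, in 15.6% of risen and in 18.54% of fallen genes. Slit diaphragm genes had them in 7 of 16 windows (43.75%) and podocyte surface genes in 7 of 21 (33.33%). Mitochondrial ribosome genes also had them in 13 of 61 windows (21.31%). The shares were 9.091% for complex I, 6.452% for complexes II to V and 7.143% for the proteasome. The NRF1 letters were in 4.784% of all windows, 11.68% of those tested, 17.95% of risen and 11.48% of fallen genes. Complex I genes had them in 7 of 33 windows (21.21%), complexes II to V in 9 of 31 (29.03%) and the mitochondrial ribosome in 12 of 61 (19.67%). The proteasome had them in 6 of 28 (21.43%), so this share was not particular to mitochondrial lists. Slit diaphragm genes had them in 0 of 16 and podocyte surface genes in 1 of 21. The letters for ETS factors, CCGGAAGT, were in 9.441% of windows tested, 12.61% of risen and 8.852% of fallen genes. Sdha, with 3 NRF1 matches, fell and Cox6a1, with 2, rose. A match describes the letters in this window and is not a measured site.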

How the data were processed

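The deposited table gives FPKM per gene, computed by the authors, with 1 column per library and 23813 rows. The submitters' processing notes name mm9 as the mouse build, and as tools Cufflinks and Bowtie 0.12.7. The role of each tool, the version of Cufflinks, the annotation and the strandedness were not given in the sources used here. The 3 columns headed control were taken as the PBS libraries of the same replicate number. FPKM of overlapping genes and of genes with near-identical copies are therefore uncertain. Of 23309 symbols, 260 stood on more than 1 row, and for these the row highest on average was used. FPKM totals were 570449 to 721388 per library. The deposited FPKM carry no read counts, so no counting interval is given, and a 0 can be a failed estimate, since 16 of the 3049 genes whose median reaches 20 FPKM have a 0 in 1 or more libraries.

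From these values log2(FPKM + 1) was computed, which understates the change of low genes. The test was limma 3.58.1 (R 4.3.3), two-sided, with a trend in the variance, fitted to all 9 libraries with a term for group. P-values were adjusted by Benjamini-Hochberg over all 9376 genes tested. The filter was 1 FPKM or more in 3 or more of the 6 ADR libraries. Tested on simulated data for this comparison with 9376 genes, the fit recovered 8.955% of genes changed by a log2 change of 1, 73.13% at 2 and 84.85% at 3, with 12 false calls. In that simulation, small changes mostly went undetected. It gave every group the same spread, drew genes and libraries independently of each other and changed 66 or 67 genes at each size. Shifts shared by many genes of a library, as in the marker-rich libraries, were not simulated. The rates of recovery and of false calls may therefore differ in the data.

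The comparison, the gene lists, the motifs and the rules were chosen with earlier results of these data known. Named genes were up to 15 per direction with the largest change among those past the threshold, without overlap and with a mean of at least 5 FPKM, up to 5 with the smallest adjusted p, up to 5 list members each by p, and preselected genes such as Wt1, Nphs1 and Cdkn1a. Small RNA and predicted genes were left out of the first 2 sets, and the printed genes were taken from these after their values were seen. Some genes are not reported here. Length and GC content were taken from each gene's longest transcript in GENCODE M21, found for 99.4% of genes tested; the transcript in these cells can be shorter. Alternatives were another pseudocount (0.1), other filters, scalings, thresholds and variance models, the 6 ADR libraries alone, a replicate block, summed duplicate symbols, each library left out, the 2 marker-rich libraries left out, a term for Y-linked transcripts and values corrected for length and GC share.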

Additional observations from a re-analysis of the deposited data

How the results depend on the processing

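The estimated depth was lowest on day 14, and its effect on the calls was not tested. The 1606 calls were within 1.5 times of that count under other pseudocounts, filters, scalings, variance models, summed duplicate symbols, without the 2 marker-rich libraries and with a term for Y-linked transcripts. The count was 431 with only the 6 ADR libraries (128 higher, 303 lower), 126 at an adjusted p under 0.01 (40 higher, 86 lower) and 477 once a length and GC trend was taken out (303 higher, 174 lower). Genes lower on day 14 numbered 653 with median-of-ratios scaling, 571 with quantile normalization, 1860 with a common total, 1912 with a common total without small RNA genes and 631 with a 2-fold minimum. Leaving out 1 library gave 427 to 2172 genes past the test, 145 to 781 higher and 282 to 1391 lower, with 67 to 126 of the 133 named genes past it. Of these 133, 72 passed with only the 6 ADR libraries, 29 at an adjusted p under 0.01 and 61 with length and GC corrected. With the replicate number as a block, 1239 genes passed, 468 higher and 771 lower. Whether libraries of the same number belong together is not in the labels. The correlations of same-numbered deviations were −0.26, 0.43 and −0.23, and those of the other pairs ran from −0.52 to 0.46. Such correlations cannot show whether same-numbered libraries were handled together. Over 24 alternative fits, 162 genes passed in all (74 higher, 88 lower). No named gene that passed reversed its direction. Of 23 lists with a median of at least 0.5 in size, 4 changed sign in some fit: Notch and TGF-beta, endothelial and mesangial without day 9 replicate 3, endothelial without day 14 replicate 2, and proximal tubule without day 14 replicate 1, alone or with day 9 replicate 3. The cause of these changes was not tested.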
